A study of Mus musculus with 6 samples.

Results

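Glycolysis converts glucose into pyruvate in a chain of cytosolic enzymes, and lactate dehydrogenase and the monocarboxylate transporters carry its end product out of the cell as lactate. Many of these enzymes, and a wider set of genes for blood vessel growth, mitochondrial turnover and collagen modification, are switched on by the hypoxia-inducible factor HIF, whose alpha subunit is destroyed in oxygenated cells after it is hydroxylated by the EGLN enzymes. Mouse embryonic stem cells, the pluripotent cells derived from the early embryo, are known for high glycolysis even in normal oxygen. The 40 genes described here were chosen by name, with a rule that uses no measured value, as 26 genes of glucose uptake, glycolysis, lactate handling and pyruvate dehydrogenase control and 14 genes of the HIF system and its known targets. Earlier results of these data were known when the list was chosen, so it is not independent of them. They were looked up by symbol among 52870 genes and loci per library, and all 40 were found.

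The 6 libraries were made from C57BL/6 embryonic stem cells, 3 from Rbbp4-/- cells (the knockout) and 3 from Rbbp4F/F cells (the control). Rbbp4 encodes a histone-binding protein that is a subunit of several chromatin complexes, among them PRC2, NuRD and CAF-1. The labels do not say how or when the gene was removed, whether the cells of a group are a single clone, what oxygen or glucose the cultures had, or whether the replicates were separate cultures, so p-values measure the spread between these libraries, which may be technical. Values are FPKM, fragments per kilobase of transcript scaled to the library's fragments, and tests were made with limma on log2(FPKM + 1), with p-values adjusted over all 13579 genes that had at least 1 FPKM in at least 3 libraries.

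Rbbp4 itself had 21.3, 12.7 and 11.1 FPKM in the knockout libraries, against 58.5, 57.0 and 61.8 FPKM in the control libraries. Steps between low values put the depth at an estimated 25800000 to 29000000 fragments per library, at which 1 fragment on a 2 kb transcript is worth 0.0172 to 0.0194 FPKM. Over all tested genes 22.5% were called lower and 36.7% higher in the knockout. Of the embryonic stem cell markers 9 of 10 were lower and 0 higher in the knockout (summed level 1159 to 1557 FPKM in the knockout, 3371 to 3653 FPKM in the control), with Pou5f1 still at 290.15 to 503 FPKM. Of 7 tested trophoblast markers, 6 were higher (summed over 8 markers, 102 to 188 FPKM in the knockout and 31.2 to 42.1 FPKM in the control, with Prl3d1 at 0 in all libraries). Among these Cdx2 and Gata3 passed the filter through the knockout libraries alone, so they had to be higher in the knockout. The part of these shifts in the results that follow was not tested, and in bulk RNA fewer cells of a type and less RNA per cell cannot be told apart. Of 10 fibroblast markers 9 stayed at or below 0.98 FPKM and Thy1 was lower in the knockout, and 6 red cell markers summed to at most 0.76 FPKM, with Hbb-bt at 0 throughout. With the values as deposited, the median of the 13579 log2 fold changes was 0.17, and it was −0.04 with median-ratio scaling, −0.07 with upper-quartile scaling and 0.31 with equal FPKM sums. The split of all calls, 4978 higher and 3051 lower, was 3630 and 4205 with median-ratio scaling. With the upper quartile as scale it was 3453 and 4402, and with equal FPKM sums 6080 and 2380.

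Transcripts of nearly the whole glycolytic chain were lower in the knockout libraries. Of the 40 members, 39 passed the filter on low values, and of these 28 fell and 6 rose. Over all tested genes 22.5% fell and 36.7% rose. Their log2 fold changes, knockout minus control, had a median of −0.99, which was 1.15 below the median of all tested genes, and the same gap was 1.18 below it with median-ratio scaling, 1.18 below with upper-quartile scaling and 1.14 below with equal FPKM sums. In 29 members the knockout libraries all lay below the controls and in 6 they all lay above, beside 25.5% and 41.3% of all tested genes, and 4 members overlapped. Among the 26 genes of glycolysis and transport 20 fell and 5 rose, and among the 13 tested of the hypoxia group 8 fell and 1 rose. The 6 genes that rose were Slc2a3, Pfkfb3, Pfkfb4, Eno2, Eno3 and Hif1a.

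**Figure D1:**
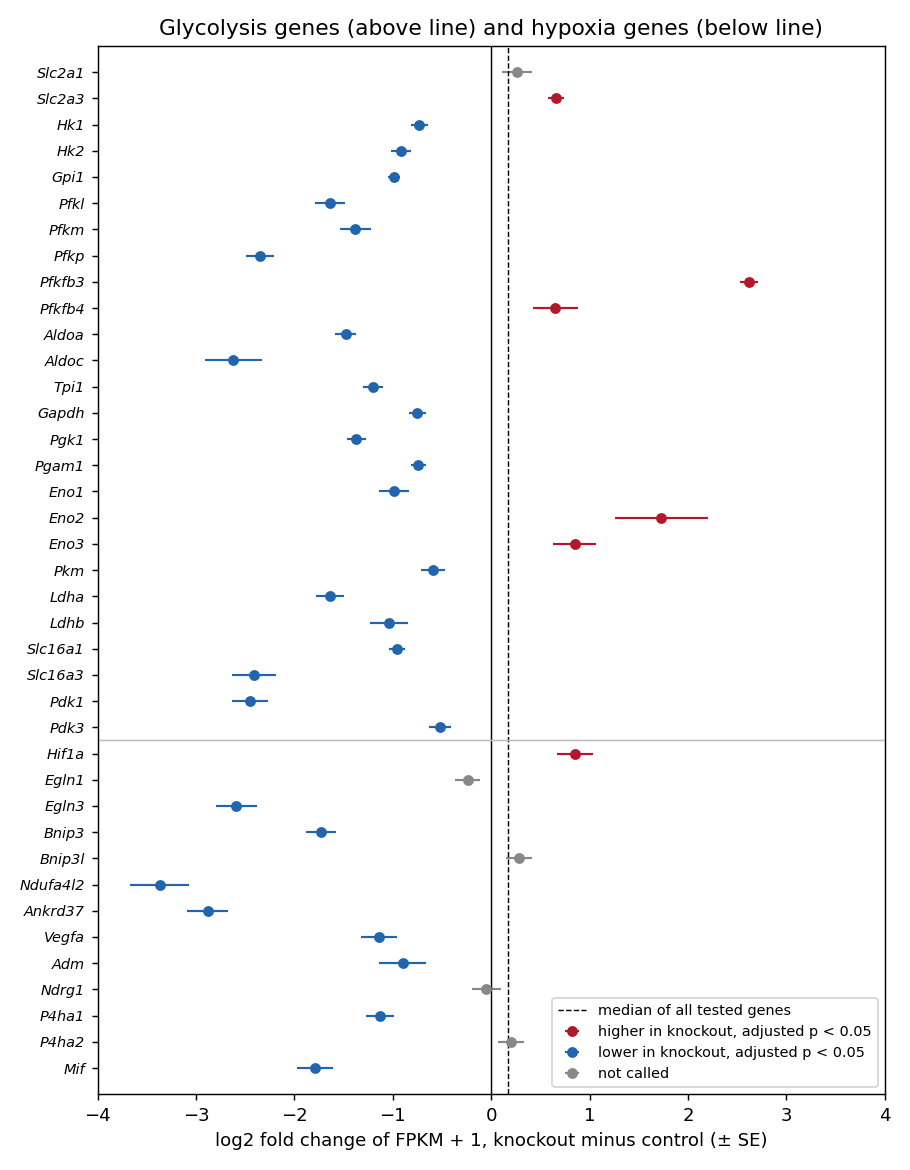
Log2 fold change of each of the 39 tested members, knockout minus control, with its limma standard error; the solid line marks 0 and the dashed line the median of all tested genes, 0.17. The 28 members called lower run from −0.52 to −3.37 and the 6 called higher from 0.65 to 2.62, with glycolysis genes above the grey line and hypoxia genes below it.

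Summed over the enzymes that catalyse each step, the knockout level was 24.8% to 66.7% of the control level at 12 of 13 steps, and it was 135% at the remaining step, glucose uptake. The steps with the lowest share were lactate transport (24.8%), phosphofructokinase (29.8%), lactate dehydrogenase (33.7%), aldolase (35.8%) and phosphoglycerate kinase (38.8%). Pyruvate kinase kept 66.7%, phosphoglycerate mutase 59.7% and glyceraldehyde-3-phosphate dehydrogenase 59.5%. At each of the 13 steps the groups did not overlap, and each gave an exact permutation p of 0.1 (two-sided, n = 3 each), the smallest that 3 against 3 libraries can give, and 0.1 after adjustment over the 13 steps. The 18 enzymes from hexokinase to lactate dehydrogenase made up 1.39%, 1.27% and 1.21% of the summed FPKM in the knockout libraries, against 2.21%, 2.18% and 2.16% in the control libraries. This share does not depend on scaling between libraries.

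**Figure D2:**
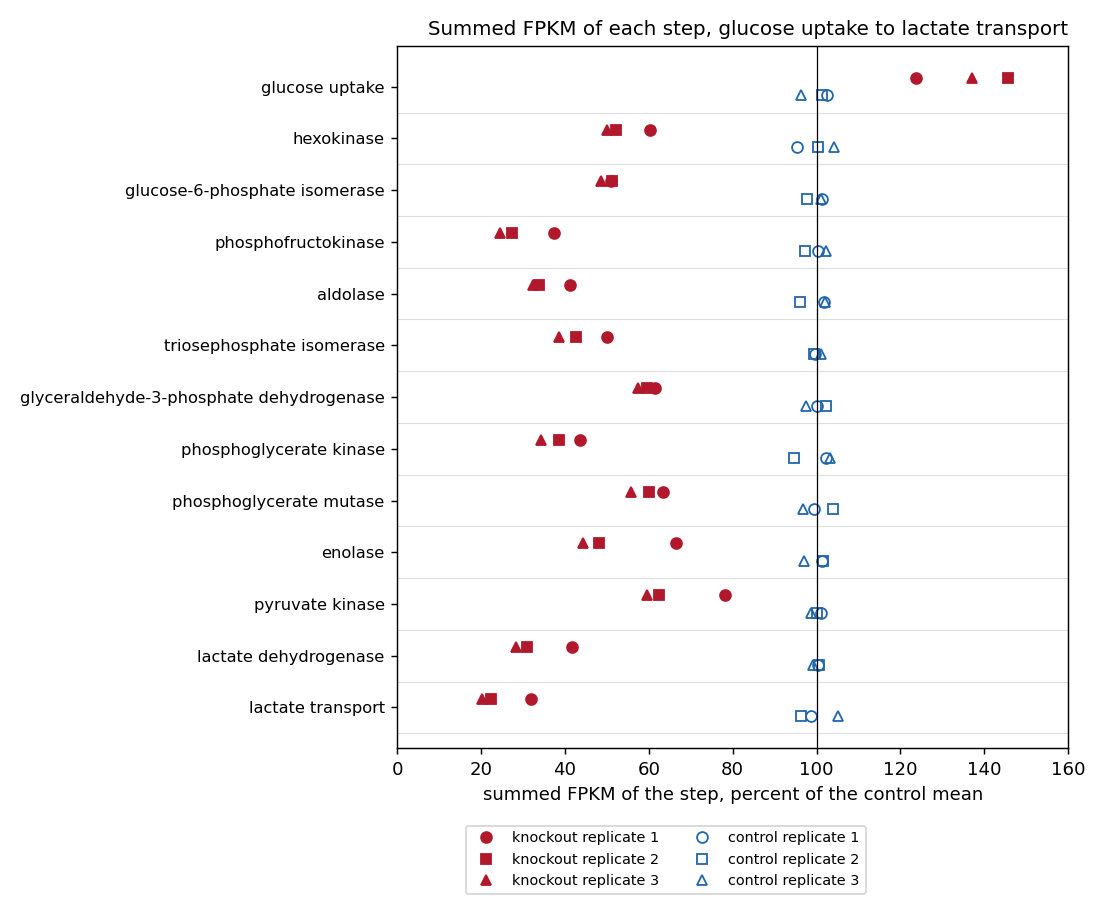
Summed FPKM of the members of each step in every library, as a percentage of the control mean, with the knockout libraries as filled red symbols above the control libraries as open blue symbols. Means of the knockout libraries lie between 24.8% and 66.7% at 12 steps and at 135% for glucose uptake, and knockout replicate 1 is the filled circle that lies nearest to the controls at most steps.

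Glucose enters through facilitative transporters, and of the 2 members of this kind 1 rose and 1 was not called. Slc2a3, the gene of the high-affinity neuronal and embryonic transporter GLUT3, had 220, 202 and 185 FPKM in the knockout libraries and 132, 125 and 126 FPKM in the control libraries. It rose by 0.66 on the log2 scale (SE 0.08, limma adjusted p = 6.19e-04). Slc2a1, which encodes the widely expressed GLUT1, had 194, 285 and 273 FPKM in the knockout libraries, against 211, 214 and 196 FPKM in the control libraries. Knockout replicate 1 lay below all controls and the other two above them, and no call was made (log2 fold change 0.26, SE 0.15, limma adjusted p = 0.174). Without that library the log2 fold change was 0.43 (limma adjusted p = 0.00166), and with upper-quartile scaling of all libraries it was −0.01.

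Hexokinase traps glucose in the cell as glucose-6-phosphate. Hk2, the inducible isozyme, averaged 53.2 ± 6.79 FPKM in the knockout and 100.7 ± 4.72 FPKM in the control (SD, n = 3 each), which is −0.92 as log2 fold change (SE 0.10, limma adjusted p = 4.13e-04). Hk1, the constitutive isozyme, averaged 16.9 ± 0.358 FPKM in the knockout and 28.7 ± 2.03 FPKM in the control, and its log2 fold change was −0.73 (SE 0.09, limma adjusted p = 5.42e-04). Both isozymes fell by similar amounts, and Hk2/Hk1 was the only ratio of 14 examined that overlapped between the groups. Gpi1, the isomerase of the next step, had 164, 164 and 156 FPKM in the knockout libraries and 326, 314 and 325 FPKM in the control libraries (log2 fold change −0.99, SE 0.06, limma adjusted p = 5.74e-05). Exons of Gm26762 on the opposite strand cover 11.5% of the Gpi1 exonic length, and that gene was at or below 0.1 FPKM.

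Phosphofructokinase commits the sugar to glycolysis and is built from liver, muscle and platelet type subunits, all of which fell. Pfkl, the liver type and the most abundant here, had 53.9, 39.6 and 34.9 FPKM in the knockout libraries, against 134, 131 and 135 FPKM in the control libraries. Pfkm, the muscle type, had 13.4, 9.09 and 8.94 FPKM in the knockout libraries and 27.0, 27.1 and 31.0 FPKM in the control libraries. Pfkp, the platelet type, had 9.23, 7.25 and 6.25 FPKM in the knockout libraries, against 43.6, 40.5 and 42.5 FPKM in the control libraries. Pfkp showed the largest fall of the 3, with log2 fold changes of −2.35 for Pfkp (SE 0.14, limma adjusted p = 4.99e-05), −1.64 for Pfkl (SE 0.15, limma adjusted p = 1.95e-04) and −1.38 for Pfkm (SE 0.16, limma adjusted p = 4.90e-04). Its share of the summed phosphofructokinase FPKM was 12.5% ± 0.438 in the knockout and 20.7% ± 0.507 in the control. Antisense exons of Pitrm1 cover 5.6% of the Pfkp exonic length, and that gene had 32.8 to 38.7 FPKM in the knockout and 52.0 to 59.8 FPKM in the control. The Pfkl share was 70.3% ± 0.598 in the knockout and 65.4% ± 0.564 in the control.

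Bifunctional enzymes make and remove fructose-2,6-bisphosphate, the activator of phosphofructokinase, and of these Pfkfb3 rose in all alternatives while the rise of Pfkfb4 was not called in 7 of them. Pfkfb3 (ENSMUSG00000026773, GRCm38 chr2:11471433-11554077, minus strand), whose enzyme mainly makes the activator, had 28.9, 29.5 and 29.1 FPKM in the knockout libraries and 3.94, 3.74 and 4.06 FPKM in the control libraries. This 7.46-fold higher mean was the largest rise among the members, by 2.62 on the log2 scale (SE 0.09, limma adjusted p = 1.44e-05), and the replicates within each group nearly coincided. Pfkfb4 had 6.07, 3.43 and 4.30 FPKM in the knockout libraries, against 3.42, 1.98 and 2.25 FPKM in the control libraries. The groups were separated by only 0.01 FPKM, and although Pfkfb4 was called higher (log2 fold change 0.65, SE 0.23, limma adjusted p = 0.0428), this call was lost with median-ratio (0.114) or upper-quartile scaling (0.137), without a filter (0.106) and without knockout replicate 1 (0.0944) or 3 (0.0806) or control replicate 2 (0.134) or 3 (0.120). Over all alternatives the limma adjusted p of Pfkfb4 ran from 0.0124 to 0.137.

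Aldolase splits the hexose bisphosphate into a pair of trioses. Aldoa, the main isozyme, had 767, 631 and 603 FPKM in the knockout libraries and 1886, 1783 and 1884 FPKM in the control libraries (log2 fold change −1.48, SE 0.11, limma adjusted p = 8.10e-05). Aldoc, the brain-type isozyme, had 4.32, 3.40 and 1.49 FPKM in the knockout libraries, against 22.1, 19.6 and 27.3 FPKM in the control libraries (−2.62, SE 0.29, limma adjusted p = 3.74e-04). Aldoc thus held 0.448% ± 0.175 of the aldolase FPKM in the knockout and 1.23% ± 0.180 in the control. Triosephosphate isomerase, which interconverts the trioses, fell as well. Tpi1 had 242, 206 and 186 FPKM in the knockout libraries and 481, 479.6 and 488 FPKM in the control libraries (−1.20, SE 0.10, limma adjusted p = 1.44e-04).

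At the later steps, which yield NADH and ATP, Gapdh, Pgam1 and Pkm kept 59.5%, 59.7% and 66.7% of the control level and Pgk1 kept 38.8%. Gapdh, the glyceraldehyde-3-phosphate dehydrogenase gene, had 4016, 3899 and 3761 FPKM in the knockout libraries, against 6560.48, 6699 and 6380.35 FPKM in the control libraries (log2 fold change −0.75, SE 0.09, limma adjusted p = 4.48e-04). Gapdh has 89 annotated genes, 84 of them pseudogenes, whose transcripts match it over at least 200 bases at 95% identity or more, and reads cannot be divided among such copies with certainty. The summed level of these copies was 1009 to 1272 FPKM in the knockout and 2032 to 2191 FPKM in the control, or 29.1% of the Gapdh level in the knockout and 32.5% in the control. Copies of the same kind were found for 12 members, and for the other 11 of them they summed to at most 3.11% of the member's own level. Pgk1, the phosphoglycerate kinase gene, had 332, 293 and 259.91 FPKM in the knockout libraries and 778, 719 and 784 FPKM in the control libraries, a larger fall than Gapdh (−1.37, SE 0.10, limma adjusted p = 9.18e-05). Pgam1, the mutase gene, had 478, 453 and 421 FPKM in the knockout libraries, against 749.7, 785 and 730.25 FPKM in the control libraries (−0.74, SE 0.08, limma adjusted p = 3.08e-04). Pkm, which encodes the pyruvate kinase of most dividing cells, had 2003.5, 1603 and 1528 FPKM in the knockout libraries and 2595, 2570.38 and 2534 FPKM in the control libraries, the smallest fall of the chain (−0.59, SE 0.12, limma adjusted p = 0.00430). Exons of Gm49759 on the same strand cover 15.3% of the Pkm exonic length, and that gene had 7.26 to 7.93 FPKM in the knockout and 11.4 to 15.3 FPKM in the control.

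Enolase was the step at which isozymes moved in opposite directions. Eno1, the ubiquitous isozyme, had 1375, 1004 and 928 FPKM in the knockout libraries and 2182.44, 2182.97 and 2091 FPKM in the control libraries (log2 fold change −0.99, SE 0.15, limma adjusted p = 0.00140). Eno2, the neuronal isozyme (ENSMUSG00000004267, GRCm38 chr6:124760053-124769673, minus strand), had 15.6, 3.77 and 3.81 FPKM in the knockout libraries, against 1.28, 1.31 and 0.96 FPKM in the control libraries. Eno3, the muscle isozyme, had 55.3, 35.5 and 30.8 FPKM in the knockout libraries and 21.2, 25.0 and 18.2 FPKM in the control libraries. Both minor isozymes rose, Eno2 by 1.73 on the log2 scale (SE 0.47, limma adjusted p = 0.0166) and Eno3 by 0.85 (SE 0.22, limma adjusted p = 0.0143), and their groups did not overlap. Much of the Eno2 value came from knockout replicate 1, without which the log2 fold change was 1.14 (limma adjusted p = 0.00101). The Eno2 call was lost without control replicate 3 (limma adjusted p = 0.0583, range over all alternatives 0.00101 to 0.0583) and without a filter (0.0503). The Eno3 call was lost without control replicate 3 (limma adjusted p = 0.0561, range 0.00482 to 0.0586) and with upper-quartile scaling (0.0586).

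Even so Eno1 supplied 95.9% ± 0.713 of the enolase FPKM in the knockout and 98.96% ± 0.143 in the control, and the Eno3 share was 3.48% ± 0.320 in the knockout and 0.985% ± 0.137 in the control. The marker counts that follow stand beside 36.7% higher and 22.5% lower among all tested genes. Of 5 tested neuronal markers 0 were higher and 4 lower in the knockout (summed over 6 markers, 111 to 136 FPKM in the knockout and 439.5 to 463 FPKM in the control). Of 3 tested muscle markers 1 was higher, Acta1, and 1 lower (summed over 7 markers, 12.3 to 27.9 FPKM in the knockout and 8.15 to 10.3 FPKM in the control), while the muscle factor genes Myod1 and Myog were at or below 0.42 FPKM in all libraries. The muscle marker that was lower, Myh3, passed the filter through the control libraries alone, so it had to be lower in the knockout.

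All 4 genes of lactate dehydrogenase, which regenerates NAD+ from pyruvate, and of lactate transport fell. Ldha, the main muscle-type subunit (ENSMUSG00000063229, GRCm38 chr7:46841475-46855627, plus strand), had 574, 432 and 385 FPKM in the knockout libraries, against 1429, 1447 and 1392 FPKM in the control libraries. Its log2 fold change was −1.64 (SE 0.14, limma adjusted p = 1.65e-04). Ldhb, the heart-type subunit, had 64.3, 41.6 and 46.7 FPKM in the knockout libraries and 103, 87.7 and 124 FPKM in the control libraries (−1.04, SE 0.19, limma adjusted p = 0.00299). Ldhb made up 9.89% ± 1.02 of the dehydrogenase FPKM in the knockout and 6.88% ± 1.23 in the control. Slc16a3 (ENSMUSG00000025161, GRCm38 chr11:120948480-120960868, plus strand), the gene of the lactate exporter MCT4, had 55.9, 33.2 and 29.2 FPKM in the knockout libraries, against 203, 195 and 221 FPKM in the control libraries (−2.41, SE 0.22, limma adjusted p = 1.99e-04). Slc16a1, which encodes MCT1, had 24.4, 23.1 and 21.5 FPKM in the knockout libraries and 46.2, 47.0 and 43.3 FPKM in the control libraries (−0.96, SE 0.08, limma adjusted p = 1.58e-04). The Slc16a3 share of the transporter FPKM was 62.1% ± 6.58 in the knockout and 81.9% ± 1.56 in the control.

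The pyruvate dehydrogenase kinases, which keep pyruvate out of the mitochondrial citrate cycle, fell unequally. Pdk1 (ENSMUSG00000006494, GRCm38 chr2:71873224-71903858, plus strand), a known HIF target, had 11.2, 7.05 and 9.71 FPKM in the knockout libraries and 48.0, 51.4 and 66.0 FPKM in the control libraries (log2 fold change −2.45, SE 0.18, limma adjusted p = 9.40e-05). Pdk3 had 10.7, 12.9 and 13.2 FPKM in the knockout libraries, against 17.7, 18.5 and 17.7 FPKM in the control libraries (−0.52, SE 0.11, limma adjusted p = 0.00534). The mean of Pdk1 was 16.9% of the control level and that of Pdk3 68.3%, so that Pdk1 was the more abundant of the pair in every control library and in 1 knockout library, replicate 1.

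The ratio of 2 related genes within a library is free of scaling between libraries, and 14 such ratios were compared. In 13 of them the groups did not overlap, 8 higher and 5 lower in the knockout. The share among ratios of other genes was not computed, and since 41.3% of all tested genes lay above and 25.5% below without overlap, the count is a description of these pairs. For each of these the exact permutation p was 0.1 (two-sided, n = 3 each), the smallest possible, and 0.108 after adjustment over the 14 ratios, so the test cannot pass a threshold of 0.05 in this design. The largest differences in log2 ratio, knockout minus control, were 3.36 for Eno2/Eno1, −2.73 for Egln3/Egln1, 2.06 for Bnip3l/Bnip3, −2.05 for Pfkfb4/Pfkfb3, 2.02 for Pdk3/Pdk1 and 1.87 for Eno3/Eno1. Slc16a3/Slc16a1 differed by −1.46, Aldoc/Aldoa by −1.55, P4ha2/P4ha1 by 1.48, Pfkp/Pfkl by −0.83 and Ldhb/Ldha by 0.58. Differences of 0.41 for Slc2a3/Slc2a1 and 0.20 for Pfkm/Pfkl were the smallest without overlap. The Slc2a3/Slc2a1 log2 ratios were 0.18, −0.49 and −0.56 in the knockout libraries and −0.67, −0.78 and −0.64 in the control libraries, so replicates 2 and 3 of the knockout were close to the controls. For Hk2/Hk1 the mean log2 ratio was 1.65 ± 0.16 in the knockout and 1.81 ± 0.11 in the control (exact permutation p = 0.3).

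**Figure D3:**
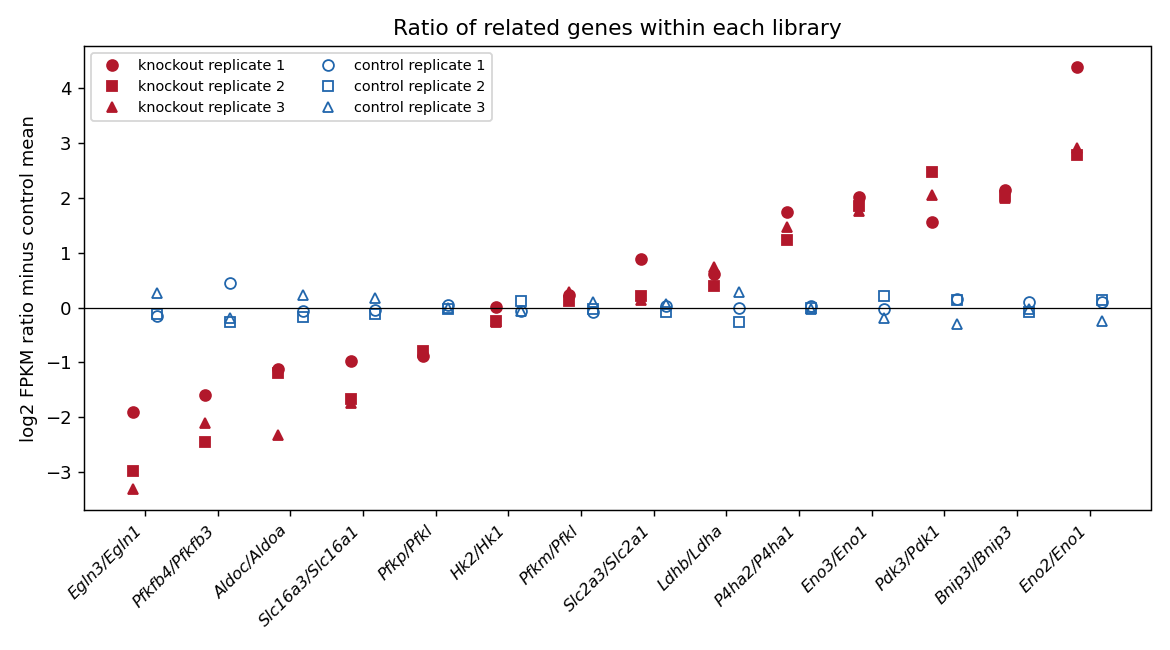
Log2 ratio of the FPKM of 2 related genes in every library, minus the control mean of that ratio, with the knockout libraries as filled red symbols left of the control libraries as open blue symbols. Ratios run from Egln3/Egln1, with a difference of −2.73, to Eno2/Eno1, with 3.36, and Hk2/Hk1 is the ratio whose groups overlap.

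Of the HIF alpha subunit gene Hif1a and the hydroxylase genes Egln1 and Egln3, Hif1a rose and Egln3 fell. Hif1a (ENSMUSG00000021109, GRCm38 chr12:73901375-73947530, plus strand) had 22.8, 31.9 and 38.1 FPKM in the knockout libraries, against 15.6, 16.7 and 16.7 FPKM in the control libraries, and rose by 0.85 on the log2 scale (SE 0.18, limma adjusted p = 0.00558). Egln3, the gene of a HIF hydroxylase that is itself a HIF target, had 4.03, 2.55 and 1.97 FPKM in the knockout libraries and 20.4, 19.8 and 25.3 FPKM in the control libraries (−2.59, SE 0.21, limma adjusted p = 1.22e-04). Egln1, which encodes the main HIF hydroxylase, had 9.89, 13.3 and 12.9 FPKM in the knockout libraries, against 14.9, 14.1 and 13.9 FPKM in the control libraries. Although every Egln1 value of the knockout was the lower, the difference did not pass (log2 fold change −0.24, SE 0.13, limma adjusted p = 0.146), except with median-ratio (0.0221) and upper-quartile scaling (0.0146). HIF is regulated mainly through protein stability, which was not measured here.

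Of the 10 tested members that are HIF targets outside glycolysis and the hydroxylases, 7 fell and 3 were not called. Among all tested genes 22.5% fell and 36.7% rose. Ndufa4l2, a respiratory chain paralog gene (ENSMUSG00000040280, GRCm38 chr10:127514967-127517154, plus strand), had 0.55, 0 and 0.99 FPKM in the knockout libraries and 19.1, 12.7 and 11.3 FPKM in the control libraries (log2 fold change −3.37, SE 0.30, limma adjusted p = 1.63e-04). It passed the filter through the control libraries alone, so it had to be lower in the knockout. Ankrd37, an ankyrin repeat gene, had 1.29, 2.99 and 2.17 FPKM in the knockout libraries, against 20.9, 19.8 and 24.5 FPKM in the control libraries (−2.88, SE 0.21, limma adjusted p = 8.92e-05). Antisense exons of Lrp2bp cover 22.7% of the Ankrd37 exonic length, but Lrp2bp was at or below 0.19 FPKM.

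Of the mitophagy receptor pair, Bnip3 fell and Bnip3l was not called. Bnip3 had 20.2, 23.8 and 27.6 FPKM in the knockout libraries and 71.7, 75.6 and 96.6 FPKM in the control libraries (log2 fold change −1.73, SE 0.15, limma adjusted p = 1.64e-04), and the antisense gene Gm45507 that covers 22.3% of its exonic length was listed at 0 throughout. Bnip3l had 34.5, 37.9 and 42.9 FPKM in the knockout libraries, against 30.0, 27.6 and 36.9 FPKM in the control libraries, and these overlapped (0.28, SE 0.13, limma adjusted p = 0.103). Bnip3l was called higher with equal FPKM sums (limma adjusted p = 0.0316) and without control replicate 3 (0.0393).

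Among secreted and matrix-related targets, Vegfa, the vascular growth factor gene, averaged 5.76 ± 0.636 FPKM in the knockout and 14.1 ± 3.22 FPKM in the control (log2 fold change −1.14, SE 0.18, limma adjusted p = 0.00153). Adm, which encodes the vasodilator peptide adrenomedullin, averaged 2.35 ± 1.01 FPKM in the knockout and 5.06 ± 0.701 FPKM in the control (−0.90, SE 0.24, limma adjusted p = 0.0171), a call lost without control replicate 1 (0.0634) or 2 (0.0535) and without a filter (0.0513). The collagen prolyl hydroxylase subunits differed from each other. P4ha1 had 5.04, 6.26 and 5.20 FPKM in the knockout libraries and 14.5, 11.4 and 13.8 FPKM in the control libraries (−1.13, SE 0.14, limma adjusted p = 5.44e-04), while P4ha2 had 16.8, 14.6 and 14.3 FPKM in the knockout libraries and 14.8, 11.3 and 13.4 FPKM in the control libraries and overlapped (0.20, SE 0.13, limma adjusted p = 0.215). P4ha2 was −0.02 with median-ratio and −0.05 with upper-quartile scaling, and it was called higher with equal FPKM sums (limma adjusted p = 0.0438).

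Mif, the gene of an abundant cytokine, averaged 757 ± 207 FPKM in the knockout and 2564 ± 32.9 FPKM in the control (log2 fold change −1.79, SE 0.18, limma adjusted p = 2.53e-04). Ndrg1, a stress-responsive gene, averaged 30.7 ± 5.76 FPKM in the knockout and 31.6 ± 2.40 FPKM in the control, and did not pass (−0.05, SE 0.15, limma adjusted p = 0.774). It turned positive without knockout replicate 1 (0.11), without control replicate 1 (0.01) and with equal FPKM sums (0.10). Car9, the gene of a membrane carbonic anhydrase, was below the filter, at 0.44, 0.29 and 0.15 FPKM in the knockout libraries and 0.49, 0.69 and 0.53 FPKM in the control libraries.

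**Figure D4:**
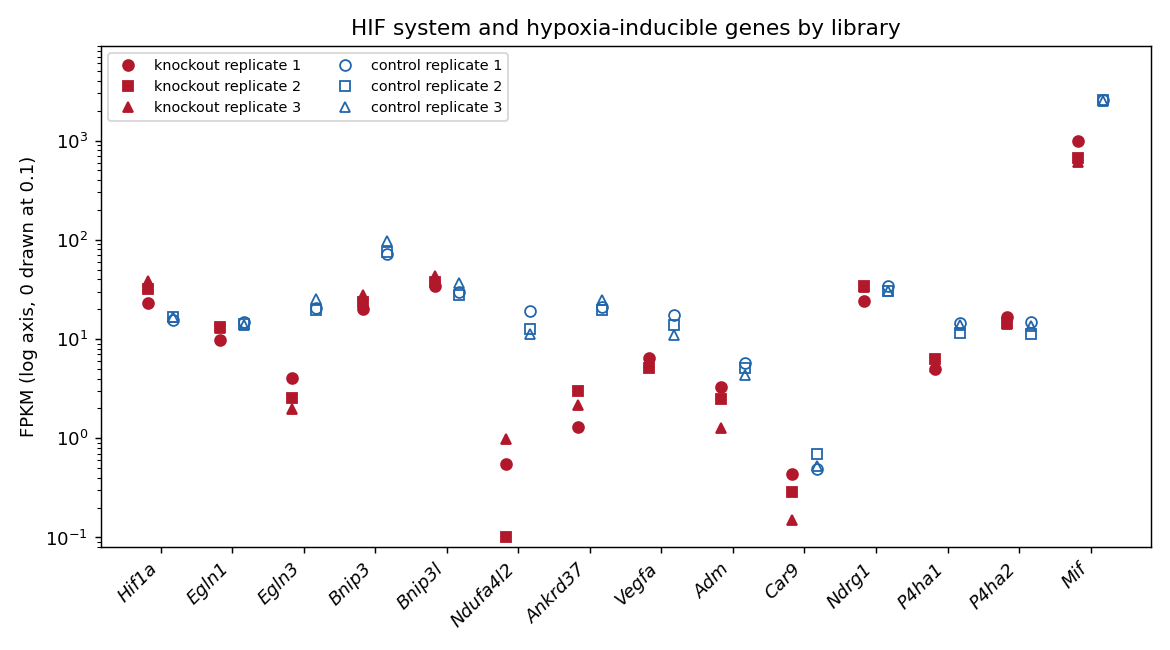
FPKM of the 14 genes of the HIF system and its targets in every library, on a logarithmic axis with the value of 0 drawn at 0.1, and with the knockout libraries as filled red symbols left of the control libraries as open blue symbols. Ndufa4l2, Ankrd37 and Egln3 show the widest gaps, Hif1a is the gene whose knockout libraries all lie above the controls, and Bnip3l, Ndrg1 and P4ha2 overlap.

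The knockout libraries were ordered among themselves in these genes. Replicate 1, which kept the most Rbbp4 transcript, was the highest knockout library in 17 of the 20 glycolysis members that fell (85%), and replicate 3, which kept the least, was the lowest in 17 (85%). Among the 8 hypoxia members that fell replicate 1 was the highest in 4 and replicate 3 the lowest in 3. Over all 3051 genes called lower replicate 1 was the highest in 60.5% and replicate 3 the lowest in 49.7%. Among the 6 members that rose replicate 1 was the highest in 4 (66.7%) and the lowest in 2 (33.3%). The shares over all 4978 genes called higher were 35% and 51%. Whether the remaining Rbbp4 transcript has a part in this order was not tested. Without knockout replicate 1 again 28 members fell and 6 rose, and the median log2 fold change was −1.08. Of the 14030 genes tested in that setting 3587 fell and 5592 rose.

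The promoters of the members were read for the core of the hypoxia response element, ACGTG or GCGTG on either strand, in 300-base windows that run from 250 bases before to 50 bases after each RefSeq start site. Windows were given for 36 of the 40 members, without Slc2a3, Bnip3l, Ndrg1 and Ndufa4l2. At least 1 match lay in a window of 33 of the 36 genes (91.7%), of 25 of the 27 that fell and of 4 of the 5 that rose, beside 68.7% of 9864 tested genes and 46.7% of all 27025 genes with a window. Per window the share was 82.0% of 50 windows of members and 62.5% of 12676 windows of tested genes, and some windows of a gene overlap. The palindrome CACGTG, an E-box that holds ACGTG on both strands and so counts as a pair of overlapping matches, was found in 6 members (16.7%) and in 12.0% of tested genes. A match is only a string of letters and no binding was measured. The members were chosen partly as known HIF targets, so a higher share among them is no independent result. The windows that follow belong to Pfkfb3, the member with the largest rise, Eno2, the other large rise, Ldha and Pgk1, abundant enzymes that fell, and Ankrd37, which had the largest fall of the members with a window. Sequences are from RefSeq, 5′ to 3′ on the strand of the gene, in lower case with the matches in capitals.
Pfkfb3 (GRCm38.p6, chr2:11502041-11502340, minus strand): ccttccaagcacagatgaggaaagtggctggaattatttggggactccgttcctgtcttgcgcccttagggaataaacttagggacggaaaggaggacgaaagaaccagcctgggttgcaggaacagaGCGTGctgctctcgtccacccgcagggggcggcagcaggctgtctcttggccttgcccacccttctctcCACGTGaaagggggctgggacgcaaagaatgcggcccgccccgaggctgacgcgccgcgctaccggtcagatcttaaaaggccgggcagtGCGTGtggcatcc
Eno2 (GRCm38.p6, chr6:124769624-124769923, minus strand): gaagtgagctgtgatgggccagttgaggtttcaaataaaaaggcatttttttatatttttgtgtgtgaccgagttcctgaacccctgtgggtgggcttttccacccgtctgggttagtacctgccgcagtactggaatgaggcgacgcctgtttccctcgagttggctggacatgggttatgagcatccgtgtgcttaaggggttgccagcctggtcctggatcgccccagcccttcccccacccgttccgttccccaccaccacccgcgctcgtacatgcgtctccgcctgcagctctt
Ldha (GRCm38.p6, chr7:46845554-46845853, plus strand): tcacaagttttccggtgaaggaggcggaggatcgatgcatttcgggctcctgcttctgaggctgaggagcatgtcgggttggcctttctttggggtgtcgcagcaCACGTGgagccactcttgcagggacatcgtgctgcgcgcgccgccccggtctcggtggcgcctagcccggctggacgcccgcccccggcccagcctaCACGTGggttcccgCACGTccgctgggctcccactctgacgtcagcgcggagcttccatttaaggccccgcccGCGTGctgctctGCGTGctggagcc
Pgk1 (GRCm38.p6, chrX:106186850-106187149, plus strand): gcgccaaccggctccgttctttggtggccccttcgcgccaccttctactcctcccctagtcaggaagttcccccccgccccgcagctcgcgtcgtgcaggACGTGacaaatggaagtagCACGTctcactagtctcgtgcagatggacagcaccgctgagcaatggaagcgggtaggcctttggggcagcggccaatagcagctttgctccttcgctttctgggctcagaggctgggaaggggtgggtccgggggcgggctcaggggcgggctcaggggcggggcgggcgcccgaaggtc
Ankrd37 (GRCm38.p6, chr8:45999801-46000100, minus strand): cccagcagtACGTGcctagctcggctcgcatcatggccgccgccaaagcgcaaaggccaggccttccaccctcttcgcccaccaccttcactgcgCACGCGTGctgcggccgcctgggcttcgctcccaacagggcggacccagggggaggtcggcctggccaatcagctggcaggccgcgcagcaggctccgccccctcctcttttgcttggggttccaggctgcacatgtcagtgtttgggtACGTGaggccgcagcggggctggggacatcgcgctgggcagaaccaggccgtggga
Ldha and Pfkfb3 have 2 windows each, of which the one with more matches is shown, and the other holds 2 matches in Ldha and 1 in Pfkfb3, without a palindrome. The Ldha window shown holds 7 matches, the most of any member, 4 of them in its pair of CACGTG palindromes, and those of Ankrd37 and Pfkfb3 hold 4 each, with 1 palindrome in Pfkfb3. The Pgk1 window holds 2 and the Eno2 window none. Gpi1 and Tpi1, which fell and are not shown, also had no match in their windows. Members that rose and members that fell thus both had windows with and without a match.

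Neighbouring pathways were examined through lists of genes that are not members. Of 20 tested genes for other glycolytic isozymes and branches 10 fell (50%) and 5 rose (25%), beside 22.5% and 36.7% of all tested genes. The median log2 fold change of the list was 0.44 below that of all tested genes. Ldhc, which is among those that fell, passed the filter through the control libraries alone, so it had to be lower in the knockout. Bsg, whose protein basigin escorts the lactate transporters to the cell surface, averaged 386 ± 19.0 FPKM in the knockout and 601 ± 8.60 FPKM in the control (−0.64, limma adjusted p = 3.57e-04). Pfkfb2, a further bifunctional enzyme gene, averaged 7.76 ± 1.22 FPKM in the knockout and 2.06 ± 0.411 FPKM in the control (1.52, limma adjusted p = 3.52e-04), with exons of Gm29427 on the same strand over 17.4% of it. Pgam5, a mitochondrial phosphatase gene named for its similarity to the mutases, averaged 97.0 ± 5.37 FPKM in the knockout and 45.01 ± 1.11 FPKM in the control (1.09, limma adjusted p = 6.76e-05), although antisense exons of Gm26718 cover 58.1% of it. Pfkfb1, a bifunctional enzyme gene named here after its values were seen, averaged 10.5 ± 2.90 FPKM in the knockout and 10.3 ± 1.40 FPKM in the control and was not called (0.01, limma adjusted p = 0.975). The transporter gene Slc2a8, also named after its values were seen, had 12.8, 5.10 and 4.93 FPKM in the knockout libraries and 15.4, 12.3 and 13.9 FPKM in the control libraries, and was called lower although the groups overlapped (−0.90, limma adjusted p = 0.0466).

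In the pentose phosphate pathway, which branches from glucose-6-phosphate to make NADPH and ribose, 5 of 10 tested genes fell and 1 rose. These shares are 50% and 10%, beside 22.5% and 36.7% of all tested genes. G6pdx, its entry enzyme gene, averaged 37.6 ± 2.38 FPKM in the knockout and 77.2 ± 7.77 FPKM in the control (log2 fold change −1.01, limma adjusted p = 2.34e-04), with antisense exons of Ikbkg over 13.6% of it. The endoplasmic reticulum counterpart H6pd changed by −1.11 (limma adjusted p = 2.80e-04). The transketolase gene Tkt averaged 237 ± 37.1 FPKM in the knockout and 471 ± 5.51 FPKM in the control (limma adjusted p = 4.07e-04). Among 13 genes for pyruvate entry into mitochondria the directions were mixed, with 5 higher (38.5%) and 4 lower (30.8%). The shares of all tested genes were 36.7% and 22.5%. The pyruvate carrier genes Mpc2 and Mpc1 rose, by log2 fold changes of 0.96 (limma adjusted p = 3.45e-04) and 0.58 (limma adjusted p = 0.00290), and 23.1% of Mpc1 is overlapped by an antisense gene. Pdk2, a further pyruvate dehydrogenase kinase gene, averaged 1.88 ± 0.801 FPKM in the knockout and 5.42 ± 1.17 FPKM in the control (−1.18, limma adjusted p = 0.00483).

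Of 16 HIF subunits and regulators 6 rose (37.5%) and 4 fell (25%), near the 36.7% and 22.5% of all tested genes. Epas1, the gene of the second HIF alpha subunit, had 6.56, 5.21 and 5.42 FPKM in the knockout libraries, against 25.2, 28.0 and 23.1 FPKM in the control libraries (log2 fold change −1.97, SE 0.12, limma adjusted p = 5.72e-05), opposite in direction to Hif1a. The gene of a further alpha subunit, Hif3a, named after its values were seen, averaged 1.44 ± 0.280 FPKM in the knockout and 4.10 ± 0.159 FPKM in the control (−1.07, limma adjusted p = 7.34e-04). Cited2, whose protein competes with HIF for the coactivator p300, had 74.6, 127 and 133 FPKM in the knockout libraries and 23.7, 25.9 and 23.9 FPKM in the control libraries (limma adjusted p = 2.80e-04), and the p300 gene Ep300 rose by 0.84 (limma adjusted p = 3.19e-04). Of 29 tested further hypoxia-inducible genes 12 fell (41.4%) and 8 rose (27.6%), beside 22.5% and 36.7% of all tested genes. Their median log2 fold change was 0.34 below that of all tested genes. Car12, which is among those that fell, passed the filter through the control libraries alone, so it had to be lower in the knockout. Ddit4, which encodes an inhibitor of mTOR signalling, averaged 26.5 ± 1.06 FPKM in the knockout and 63.6 ± 3.18 FPKM in the control (−1.23, limma adjusted p = 5.70e-05). Wsb1 rose by 1.60 (limma adjusted p = 5.27e-05), and the endothelin gene Edn1 had 5.30, 6.79 and 5.73 FPKM in the knockout libraries and 0.04, 0.15 and 0.10 FPKM in the control libraries (2.66, limma adjusted p = 3.95e-05), where it passed the filter through the knockout libraries alone.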

How the data were processed

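Messenger RNA profiles of 6 libraries of mouse embryonic stem cells were deposited as 1 table per library, with a gene identifier and a value. The unit of the deposited values was taken as FPKM from the values, which are not whole and sum to 697933 to 800146 per library. Per the submitters' processing notes, FastQC, HISAT2 2.1.0, RSEM, DESeq 1.26.0 and GRCm38.p6 were used, without roles, and the annotation and strand setting were not given in the sources used here. FPKM is a share of a library, in which a loss of abundant transcripts lifts the rest.

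2 rows per file of overflowing text were left out. Symbols and coordinates came from GENCODE M21 on GRCm38, which matched 51719 of 51912 Ensembl genes. Depth was estimated from the even steps of low values of genes with 1 transcript, with 260 to 280 bases subtracted from each transcript length. Of those values 80.7% to 82.7% fell within 0.15 of a whole step, so fragments per gene were not recovered and no count model was used.

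limma 3.58.1 (R 4.3.3, two-sided, variance trend on the mean, no term besides group) was fitted to log2(FPKM + 1) of the genes that reached 1 FPKM in 3 or more libraries, with Benjamini-Hochberg adjustment over all of them and a threshold of 0.05. This scale understates changes of low genes. Ratios and step sums were compared by exact permutation over libraries. The members and gene lists were chosen with earlier results of these data known. By the rule for named genes, values in every library are given for the 6 largest called changes in each direction, for pairs whose ratios do not overlap and for single-gene steps, and from each further list up to 3 called genes with the smallest p are named. Alternatives were other scalings, a pseudocount of 0.1, no filter or one of 5 FPKM, the replicate number as a block and each library left out in turn (1 FPKM in 2 libraries).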

Additional observations from a re-analysis of the deposited data

How the results depend on the processing

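Of the 34 called members, 30 kept their call and direction in all 13 alternatives in which they were tested, and Pfkfb4, Eno2, Eno3 and Adm lost the call in some. The number of members that fell was 27 to 29 throughout, and all 13 glycolytic steps and at least 13 of 14 ratios stayed without overlap. Over all tested genes the number that fell ran from 2380 with equal FPKM sums to 4402 with upper-quartile scaling. The median log2 fold change of the members was −1.21 with median-ratio scaling, −1.25 with upper-quartile scaling and −0.83 with equal FPKM sums. Glycolysis members called higher numbered 3 with upper-quartile scaling, 3 without a filter, 3 with a filter of 5 FPKM and 2 (without control replicate 3) to 5 with 1 library left out. Hypoxia members called higher numbered 3 with equal FPKM sums and 1 to 2 (without control replicate 3) with 1 library left out. Values that reversed were all uncalled: Slc2a1 was −0.01 with upper-quartile scaling, P4ha2 −0.02 with median-ratio and −0.05 with upper-quartile scaling, and Ndrg1 0.10 with equal FPKM sums, 0.11 without knockout replicate 1 and 0.01 without control replicate 1 (−0.14 to 0.11 with 1 library left out). The cause was not tested. Same-numbered libraries did not deviate together (r = −0.001, −0.009 and 0.049). The labels do not say what the numbers mean, so this does not settle whether the libraries were paired. With the replicate number as a block 28 members fell and 6 rose (all genes, 4872 higher and 2907 lower), and no member's call changed. Car9 was left untested by the filter of 1 FPKM.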

Other observations

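Genes singled out after their values were seen add detail to the hypoxia-inducible and glucose storage genes. Glycogen synthase gene Gys1 was lower in the knockout (log2 fold change −0.83, limma adjusted p = 0.00113), and the glycogen branching enzyme gene Gbe1 was higher (1.09, limma adjusted p = 8.76e-04). The phosphoglucomutase genes Pgm1 and Pgm3 were lower, by −0.64 (limma adjusted p = 0.00171) and −0.70 (limma adjusted p = 0.00128), although antisense genes overlap 13.6% of Pgm1 and 28.3% of Pgm3. Gpd1l, of the glycerol phosphate branch, was lower (−1.09, limma adjusted p = 6.10e-04), and the mitochondrial glycerol phosphate dehydrogenase gene Gpd2 was higher (0.66, limma adjusted p = 6.39e-04). Among secreted and surface products, the annexin gene Anxa2 was higher (1.27, limma adjusted p = 0.00284), whereas Stc2 (−1.44, limma adjusted p = 0.00155) and Angptl4 (−1.25, limma adjusted p = 0.00284) were lower.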
